A study of Homo sapiens with 6 samples.

Results

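The plasminogen activation genes described here are 6 genes picked by symbol: PLAU, PLAT, SERPINE2, PLAUR, ANXA2 and S100A10. All 6 were found among the 20115 genes of the authors' deposited gene table. ANXA2 and S100A10 also have a row among the 2014 readthrough regions, stretches transcribed beyond a gene's end. The members were chosen by name and known role, with earlier results of these data in view.

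Plasminogen is an inactive precursor, made mainly by the liver, that becomes the protease plasmin when it is cut by urokinase (PLAU) or tissue-type plasminogen activator (PLAT). Urokinase works at the cell surface, held by its receptor (PLAUR). The annexin A2 and S100A10 proteins form a complex that binds plasminogen and tissue-type activator. Serpins such as protease nexin-1 (SERPINE2) trap the activators, and plasmin dissolves fibrin, cleaves matrix proteins and activates some metalloproteinase precursors. Invasive breast cancer cells, MDA-MB-231 among them, are known for urokinase and its receptor.

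The samples are 6 rRNA-depleted total RNA libraries of MDA-MB-231, a human triple-negative breast cancer line. The control group has 3 libraries, and the UBE3D KD group has 3 from cells with lentiviral inducible short hairpins against UBE3D, a gene for a ubiquitin ligase, switched on by doxycycline. All cells grew in DMEM with fetal bovine serum and penicillin/streptomycin. The number of hairpins, the control construct and whether controls received doxycycline are not stated in the labels. The sample titles number the libraries of each group as replicates. Every sample is labelled as pooled, and no label places the libraries in separate cultures. The p-values then measure only how far these libraries vary, and that variation may be technical. The files give 1 comparison, knockdown over control, as a mean normalized count over both groups, a log2 fold change, its standard error (SE) and a p-value adjusted over all genes. Values per library were not analysed here, so neither depth nor the overlap of single samples can be shown. A gene is called lower or higher at an adjusted p under 0.05. The deposited fold changes were pulled toward 0 by shrinkage and may understate the size of a change. UBE3D, the targeted gene, was 1.74-fold lower (log2 fold change -0.80, SE 0.37, adjusted p = 0.00632) in the authors' deposited table. That call was lost in a Wald test of the deposited change over its SE (adjusted p = 0.295). The Wald test divides a shrunken change and calls fewer genes in general. Of all 20115 genes it called 826 lower and 390 higher, against 1595 and 929 by the deposited adjusted p. A lost call is therefore common and not particular to the genes named here. Markers of a mesenchymal triple-negative line were abundant, with 6 of 6 at a mean of 2754 to 11376 normalized counts in the authors' deposited table. Of 7 luminal breast markers the keratin genes KRT8 and KRT18 had means of 3626 and 2490 and ERBB2 757.7, while GATA3 had 79.98, PGR 50.2, ESR1 22.2 and FOXA1 9.74 in the authors' deposited table. Lower in the knockdown were 3 of those 6 mesenchymal markers, VIM by 0.34 and CD44 by 0.26 in log2, both lost in the Wald test, and MSN by 0.62.

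Both activators and the inhibitor fell, and the 3 surface-binding members did not pass the threshold. Of the 6 members 3 were lower and 0 higher. At an unadjusted p under 0.05, and by the Wald test, the number higher was also 0. Over all 20115 genes, 3031 were lower and 1845 higher at that unadjusted p, and 826 and 390 by the Wald test. Of all genes, 7.93% were lower and 4.62% higher by DESeq2's adjusted p in the authors' deposited table. All 6 members average 100 normalized counts or more, and of the 9743 genes that do so 12.4% were lower and 7.45% higher. The plot of members shows this gap: the intervals of PLAU, PLAT and SERPINE2 lie below -0.92 and those of the 3 receptors span 0.

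**Figure D1:**
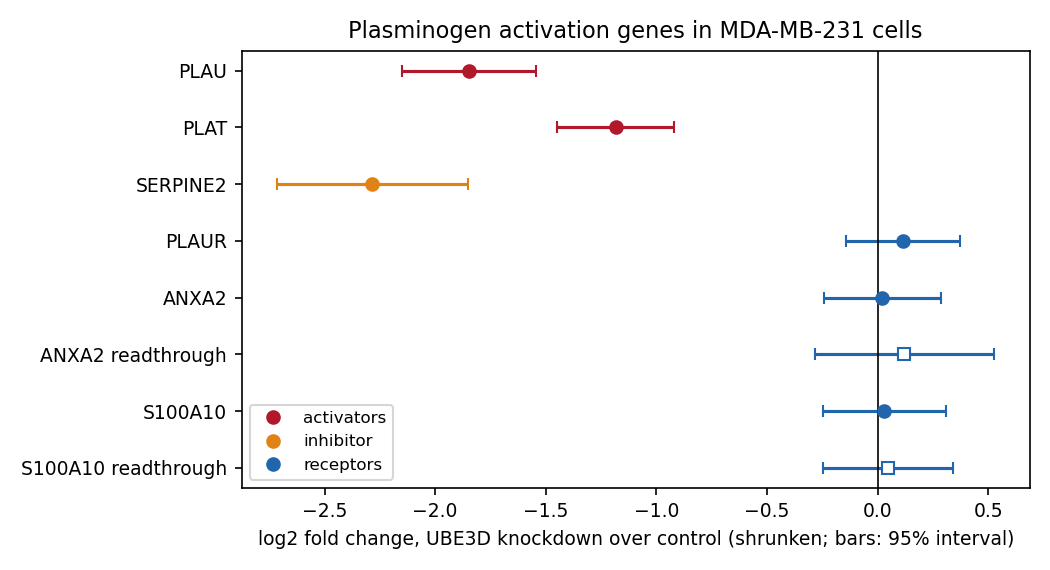
Log2 fold change (x axis, knockdown over control) of the 6 members and the readthrough regions of ANXA2 and S100A10 (open squares), with bars of the 95% interval. PLAU (-1.85), PLAT (-1.18) and SERPINE2 (-2.28) lie left of 0 and the receptors at 0.02 to 0.11.

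PLAU encodes urokinase, the activator tied to cell migration and matrix breakdown. It spans chr10:73909177-73917497 on the plus strand (GRCh38, GENCODE 29, ENSG00000122861.15), with 10 exons in its longest coding transcript. Its mean was 2514 normalized counts over both groups in the authors' deposited table. From that mean and the fold change, with 3 libraries in each group, the group means come to 3936 in control and 1092 in knockdown cells. PLAU thus fell 3.60-fold (log2 fold change -1.85, SE 0.15, adjusted p = 1.61e-31) in the authors' deposited table, to 27.8% of control with a 95% interval of 22.5% to 34.2%. The fall ranks 12 from the lowest among those 9743 genes, and its p-value ranks 25 among all 20115.

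PLAT encodes tissue-type plasminogen activator, which is known mostly for dissolving fibrin in blood vessels. It lies at chr8:42175233-42207724 on the minus strand (ENSG00000104368.17) and has 14 exons in its longest coding transcript. At a mean of 573.9 counts (normalized, the authors' deposited table), the implied group means are 797 in control and 351 in knockdown cells. PLAT fell 2.27-fold (log2 fold change -1.18, SE 0.13, adjusted p = 3.8e-18) in the authors' deposited table, to 44.0% of control (95% interval 36.7% to 52.8%). This interval does not overlap that of PLAU. No test of one member against another was made, since their covariance is unknown.

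SERPINE2 encodes protease nexin-1, a secreted serpin that inhibits thrombin, urokinase and tissue-type activator. It spans 64.2 kb at chr2:223975112-224039319 on the minus strand (ENSG00000135919.12). It had a mean normalized count of 122.6 in the authors' deposited table, with implied means of 203 in control and 41.8 in knockdown cells. SERPINE2 fell 4.87-fold (log2 fold change -2.28, SE 0.22, adjusted p = 6.11e-25) in the authors' deposited table, to 20.5% of control (95% interval 15.3% to 27.7%). This was the largest fall of any member, ranked 9 from the lowest among the 9743 genes, and its interval overlaps that of PLAU but not that of PLAT.

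The receptor side gave other values. PLAUR, the gene of the urokinase receptor, a protein anchored to the membrane by a lipid tail, lies at chr19:43646095-43670547 on the minus strand (ENSG00000011422.11). Its mean normalized count was 595.8 in the authors' deposited table, and the implied means are 572 in control and 619 in knockdown cells. PLAUR had a log2 change of 0.11 (SE 0.13, adjusted p = 0.503) in the authors' deposited table, and its 95% interval runs from 90.6% to 129% of control. The interval therefore does not exclude changes within those bounds, while a fall of the size of PLAU's or PLAT's lies outside them.

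ANXA2, the annexin that binds membrane phospholipid with calcium, lies at chr15:60347134-60402883 on the minus strand (ENSG00000182718.16), and S100A10, its small partner, at chr1:151982915-151994390 on the minus strand (ENSG00000197747.8). ANXA2 had a mean normalized count of 8668 and a log2 change of 0.02 (SE 0.13, adjusted p = 0.932) in the authors' deposited table. For S100A10 the mean was 2675 and the log2 change 0.03 (SE 0.14, adjusted p = 0.896) in the authors' deposited table. The 95% intervals are 84.5% to 122% of control for ANXA2 and 84.2% to 124% for S100A10. A p above the threshold does not show that the pair was unchanged, but larger changes lie outside these bounds, and the plot over all genes shows both near 0.

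**Figure D2:**
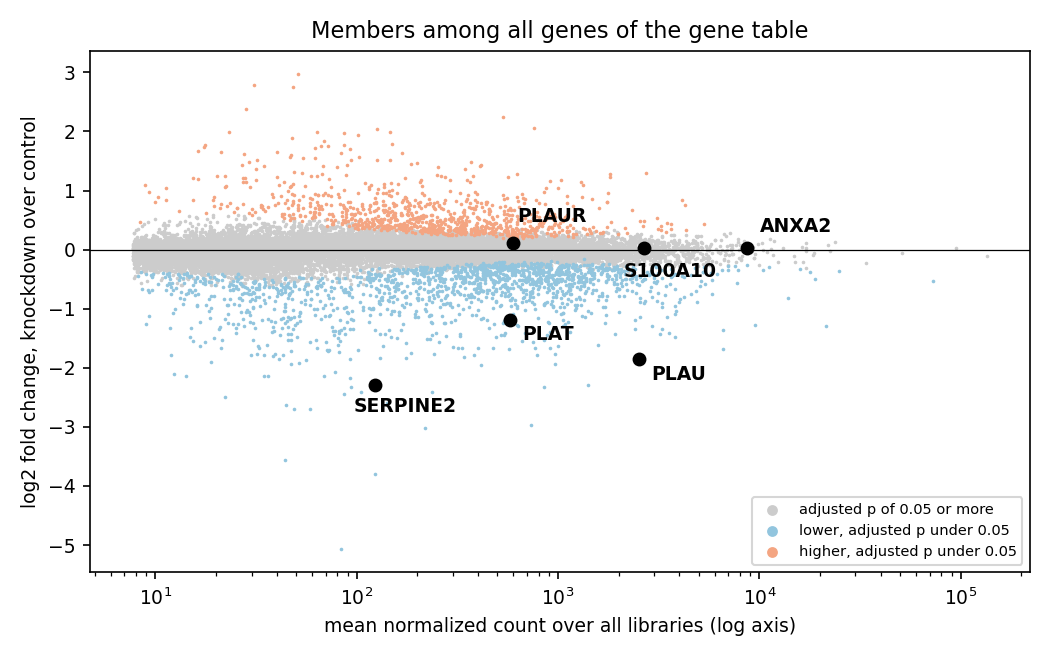
Log2 fold change (y axis, knockdown over control) against the mean normalized count over all libraries (log x axis) for all 20115 genes, with the 6 members as black points. SERPINE2 and PLAU lie at the lower edge of genes of their abundance, PLAT (-1.18) lies among lowered genes, and PLAUR, S100A10 and ANXA2 lie in the grey band around 0.

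Levels can be set side by side only per length. Per kb of the longest coding transcript, the mean normalized counts computed from the authors' deposited table were 5172 for ANXA2, 2226 for S100A10, 946 for PLAU, 370 for PLAUR, 212 for PLAT and 47.7 for SERPINE2. Over the union of annotated exons the order of the first pair turns, with 1734 for S100A10 and 982 for ANXA2. In implied group levels per kb, PLAU stood at 1481 in control and 411 in knockdown cells, and its receptor PLAUR at 355 and 385. On this length PLAU stood above PLAUR in control cells and near it in knockdown cells, as the level plot shows. The nearness depends on the length used: per kb of exon union PLAU came to 1334 and 370 in control and knockdown cells, and PLAUR to 128 and 139. PLAT went from 295 to 130 per kb and SERPINE2 from 79.2 to 16.3. These group levels rest on a shrunken fold change and carry no spread of their own, so neighbours in this order were not tested.

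**Figure D3:**
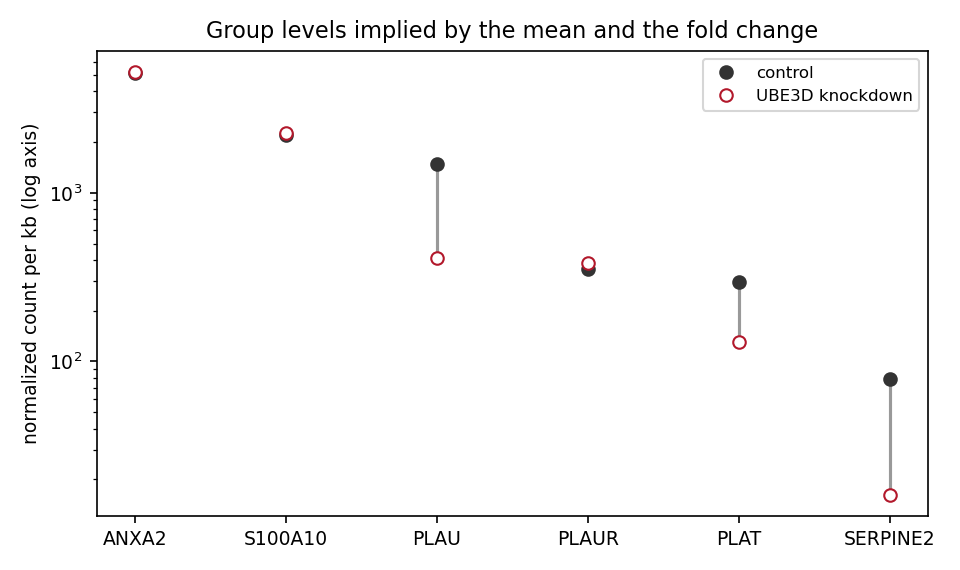
Normalized count per kb of transcript (log y axis) for each member in control (filled) and knockdown (open) cells, implied by the deposited mean and fold change; no spread per library is known. PLAU drops from 1481 to 411 per kb, to near the PLAUR points at 355 and 385, which are further off (370 against 139 in knockdown cells) per kb of exon union.

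Counting bears on single members unequally. Of the 2584 windows of 75 bases (the read length) in the PLAU transcript, 420 (16.3%) also lie, on the other strand, in transcripts of C10orf55, a gene that overlaps PLAU in the opposite direction. C10orf55, with a mean normalized count of 34.8, was lower as well (log2 change -0.86, SE 0.50, adjusted p = 0.0128) in the authors' deposited table, a call lost in the Wald test (adjusted p = 0.616). The libraries are labelled as stranded but how the counting used strand is not given in the sources used here. No window is shared on the same strand, so counting by strand would separate PLAU from C10orf55, and counting without it would not. Of the 1602 windows of ANXA2, 415 (25.9%) occur in ANXA2P2 or ANXA2P1, processed copies of the gene. How reads from shared windows were counted is not given, so the effect on the ANXA2 count is not known. For ANXA2P2 the mean was 117.9 and the log2 change 0.06 (SE 0.15, adjusted p = 0.757) in the authors' deposited table. PLAT, PLAUR, S100A10 and SERPINE2 share 0 windows with other annotated genes.

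The starts of the genes were compared because PLAU and PLAUR are textbook targets of AP-1 and ETS factors. Windows of 250 bases before and 50 after the RefSeq start (GRCh38.p14) were found for 5 of the 6 members, all but PLAT. Capitals mark 4 motifs searched on either strand: the AP-1 site (TGANTCA), the GC box (GGGCGG), the TATA box (TATAAA) and the CCAAT box. Neighbouring GC boxes overlap in ANXA2. Shown are the lowered members PLAU (chr10:73910360-73910659, plus strand) and SERPINE2 (chr2:224031429-224031728, minus strand), then PLAUR (chr19:43670120-43670419, minus strand) and ANXA2 (chr15:60397937-60398236, minus strand).
PLAU: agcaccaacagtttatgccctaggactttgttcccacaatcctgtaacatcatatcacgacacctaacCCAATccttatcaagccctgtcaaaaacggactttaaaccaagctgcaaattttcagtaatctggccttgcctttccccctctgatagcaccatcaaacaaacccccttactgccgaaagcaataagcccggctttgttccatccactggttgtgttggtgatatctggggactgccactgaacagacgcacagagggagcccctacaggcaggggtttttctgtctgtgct
SERPINE2: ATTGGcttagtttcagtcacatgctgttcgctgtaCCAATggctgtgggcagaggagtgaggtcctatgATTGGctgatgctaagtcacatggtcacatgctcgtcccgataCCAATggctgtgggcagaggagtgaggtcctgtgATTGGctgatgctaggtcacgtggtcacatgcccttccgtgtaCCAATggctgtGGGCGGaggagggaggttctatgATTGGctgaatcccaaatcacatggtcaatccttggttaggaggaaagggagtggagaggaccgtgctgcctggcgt
PLAUR: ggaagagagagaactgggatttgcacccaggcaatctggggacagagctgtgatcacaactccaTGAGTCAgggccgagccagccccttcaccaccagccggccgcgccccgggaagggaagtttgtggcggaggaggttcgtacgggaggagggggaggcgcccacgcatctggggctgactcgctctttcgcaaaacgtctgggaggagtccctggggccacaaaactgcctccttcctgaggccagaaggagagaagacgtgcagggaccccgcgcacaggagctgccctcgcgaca
ANXA2: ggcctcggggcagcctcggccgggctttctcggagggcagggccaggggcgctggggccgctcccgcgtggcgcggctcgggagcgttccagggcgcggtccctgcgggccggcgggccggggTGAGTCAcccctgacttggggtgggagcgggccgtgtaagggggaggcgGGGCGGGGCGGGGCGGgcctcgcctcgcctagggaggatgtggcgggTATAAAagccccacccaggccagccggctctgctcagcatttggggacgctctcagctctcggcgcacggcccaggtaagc

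The AP-1 letters occurred once each in the windows of PLAUR (186 bases before the start) and ANXA2 (127 bases before), members that did not pass the threshold, and in 5.75% of the windows of all 13933 matched genes. Neither PLAU nor SERPINE2 nor S100A10 has them in this window. The ETS core GGAAG, present in 74.8% of all windows, was found 4 times in PLAUR, 2 times in S100A10, once in SERPINE2 and 0 times in PLAU and ANXA2. GC boxes (61.0% of all windows) numbered 3 in ANXA2 and 1 each in S100A10 and SERPINE2, and TATAAA (7.79%) was found in ANXA2 alone of the 5, 31 bases before its start. The SERPINE2 window holds CCAAT 7 times over both strands, at 27, 61, 104, 138, 181, 215 and 250 bases before the start, inside a block that repeats. CCAAT occurs in 36.1% of all windows, with a median of 0 matches, and 2 of 13933 windows hold 7 or more; the word was chosen after this window was read. RefSeq's start is not the outermost one. GENCODE's gene start lies upstream of it, by 1433 bases for PLAU, 7841 for SERPINE2, 4897 for ANXA2, 531 for S100A10 and 378 for PLAUR. Each of these windows thus lies inside the annotated gene, and the sequence at GENCODE's start was not searched. A motif absent from a window is absent only there. Which start these cells use was not analysed here, and urokinase enhancers farther upstream lie outside the window.

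In the 3' untranslated regions (UTRs) the members share short length. The longest annotated ones are 932 bases in PLAU, 760 in PLAT, 755 in SERPINE2, 496 in ANXA2, 362 in PLAUR and 248 in S100A10, against a median of 1538 over 9127 of the 9743 genes. The words GATTGAA and CTTATCT, known from earlier results of these data as more frequent in lowered and in raised genes, occur in 0 of the 6. GATTGAA is present in 27.6% of the 1156 lowered genes among the 9127 and in 9.02% of the 7305 not past the threshold. These shares are not matched for UTR length. Among genes of any call whose UTR is 0.5 to 2 times as long, GATTGAA occurs in 5.28% for PLAU, 4.31% for PLAT and 4.33% for SERPINE2. Most UTRs of that length, over all calls, lack it like these 3. The share among lowered genes of that length was not analysed here. The AU-rich pentamer ATTTA, the core of elements known to shorten the life of urokinase messages, was found 2 times each in PLAU, PLAT, SERPINE2 and ANXA2 and 0 times in PLAUR and S100A10. It occurs in 77.0% of all 9127 UTRs, in 74.5% of those of PLAU's length class and in 46.7% of those of PLAUR's. The PLAU and SERPINE2 sites, with ATTTA in capitals and 11 bases either side, were as follows; those of PLAU are 20 bases apart in a stretch rich in A and T.
PLAU site A: gtacactgaatATTTAtatttcactat
PLAU site B: tcactatttttATTTAtatttttgtaa
SERPINE2 site A: tttcagaagaaATTTAatcagtgtgac
SERPINE2 site B: actaaaataaaATTTAaaaaactcctg

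Most genes beside the members did not pass the threshold. Within 50 kb of the 6 members, 14 neighbours are in the gene table, of which 1 was lower and 2 were higher. Over all genes, 7.93% were lower and 4.62% higher. C10orf55, which overlaps PLAU, is the lowered one, and CAMK2G, 34.6 kb upstream of PLAU, had a log2 change of -0.05 (adjusted p = 0.722) in the authors' deposited table. MRPL44 and WDFY1 beside SERPINE2 had -0.10 and -0.14, and AP3M2 beside PLAT 0.04, and none passed in the authors' deposited table. Both raised neighbours lie downstream of PLAUR. The adhesion gene CADM4, 6.26 kb from PLAUR, rose 3.42-fold (log2 fold change 1.77, SE 0.30, adjusted p = 3.66e-09) at a mean of 86.0, and IRGQ, 49.96 kb away, rose by 0.35 (SE 0.09, adjusted p = 0.000271) in the authors' deposited table. The other 4 neighbours of PLAUR (ZNF428, SRRM5, ZNF576 and IRGC), ICE2 beside ANXA2, and NBPF18P and S100A11 beside S100A10 had log2 fold changes of -0.19 to 0.10 and did not pass in the authors' deposited table. Between 50 and 100 kb, IKBKB near PLAT was lower (-0.33, adjusted p = 0.00992) and KCNN4 near PLAUR higher (0.62, adjusted p = 1.51e-07) in the authors' deposited table. The IKBKB call was lost in the Wald test (adjusted p = 0.107).

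**Figure D4:**
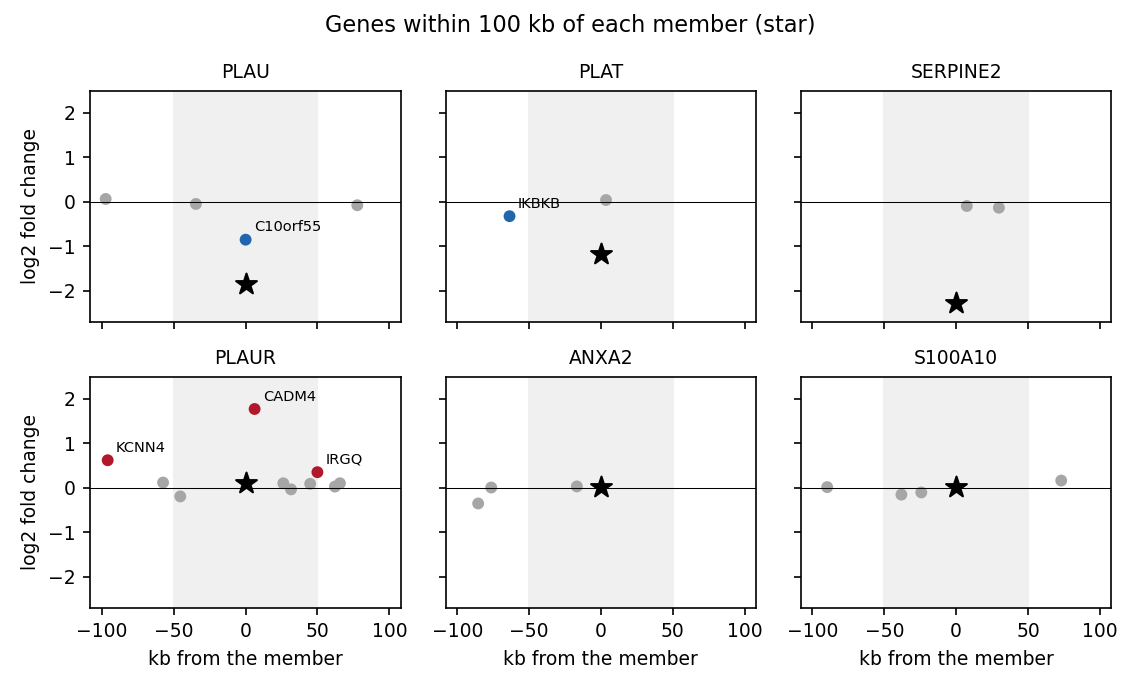
Log2 fold change (y axis, knockdown over control) of genes within 100 kb of each member against their distance in kb, upstream to the left, with the member as a star, 50 kb shaded, and lowered and raised genes in blue and red. PLAU, PLAT and SERPINE2 lie apart from their neighbours, and CADM4 (1.77) lies above PLAUR (0.11).

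Around the members, 96 other genes of the pathway in 10 lists by role were measured, of 102 listed; S100A7, S100A8, S100A9, S100A12, S100B and S100P are not in the table analysed here. Of the 96, 29 were lower (23 in the Wald test) and 0 higher, with a median log2 fold change of -0.17, against -0.03 over all 20115 genes. That is 30.2% lower, beside 7.93% lower and 4.62% higher over all genes. Of the 62 with a mean normalized count of 100 or more, 26 were lower, beside 12.4% lower and 7.45% higher of all genes that abundant. By the Wald test 826 of all 20115 genes were lower and 390 higher. At an unadjusted p under 0.05 those numbers were 3031 and 1845. The counts by role that follow stand against these values. The lists were set with results of these data known, so these counts are a description. At an adjusted p under 0.1, at an unadjusted p under 0.05, or tested over the 9743 genes alone, 2 genes passed as higher, F2R (0.25) and ETS2 (0.19) in the authors' deposited table.

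**Figure D5:**
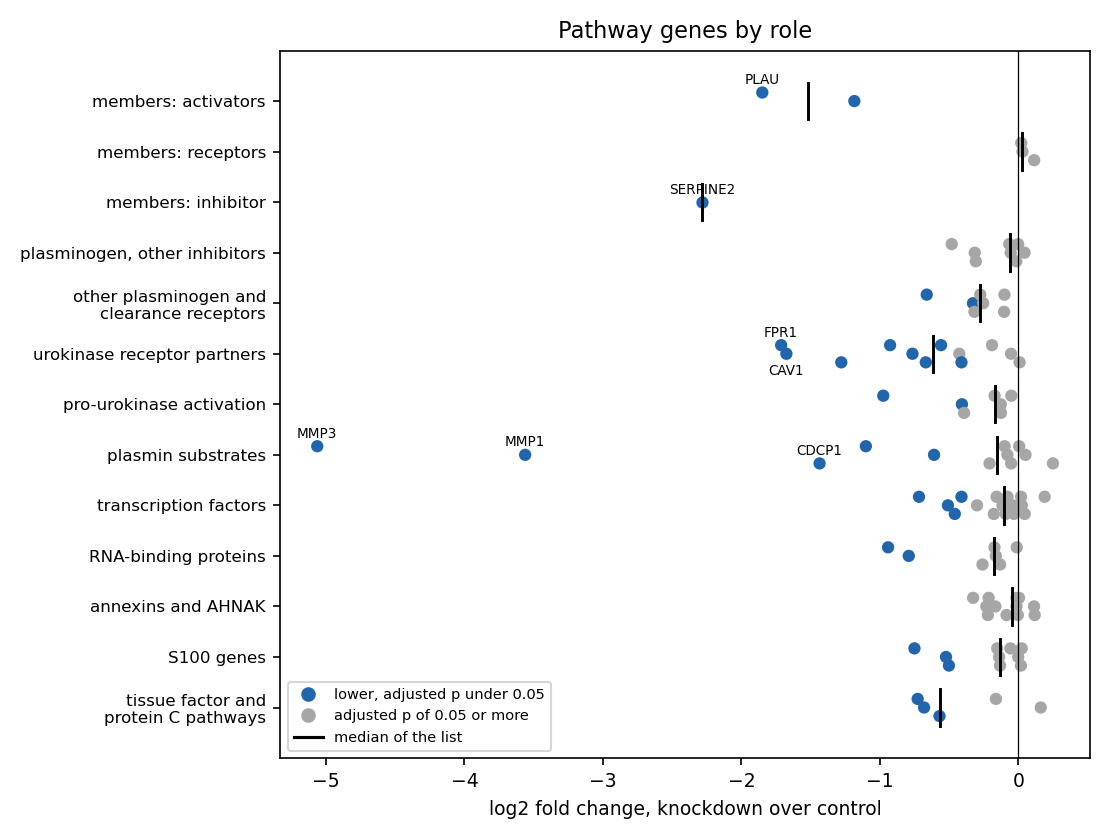
Log2 fold change (x axis, knockdown over control) of the members and of 96 other pathway genes by role, with lowered genes in blue, genes not past the threshold in grey and the median of each list as a bar. Among the 10 lists without members, receptor partners have the lowest median (-0.61), single plasmin substrates reach furthest left (MMP3 at -5.06), and annexins stay near 0 (median -0.05).

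Of plasminogen and 7 other inhibitors, 0 of 8 passed by DESeq2's adjusted p or by the Wald test, and 3 were lower at an unadjusted p under 0.05. All 8 were scarce, with mean normalized counts of 8.79 to 25.6, so small changes are not detectable for them. PLG itself had a mean of 19.3 and a log2 change of -0.07 (SE 0.32, adjusted p = 0.747) in the authors' deposited table. SERPINB2, the gene of a urokinase inhibitor, had 13.9 and -0.31 (SE 0.57, adjusted p = 0.125) in the authors' deposited table. A2M, a broad protease trap, had 25.6 and -0.48 (SE 0.65, adjusted p = 0.068), and SERPINF2, the gene of the main plasmin inhibitor, 23.4 and -0.06 (SE 0.28, adjusted p = 0.801) in the authors' deposited table.

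Other surface proteins that bind plasminogen or clear its activators had 2 of 7 lower. MRC2, the urokinase receptor-associated collagen receptor, fell by 0.66 in log2 (SE 0.17, adjusted p = 9.05e-05) in the authors' deposited table. ENO1, a glycolytic enzyme that also binds plasminogen at the surface, was lower by 0.33 (SE 0.15, adjusted p = 0.0317) in the authors' deposited table, a call lost in the Wald test (adjusted p = 0.301). LRP1, which takes up activator bound to its inhibitor, had -0.32 (adjusted p = 0.0842), and the plasminogen receptor gene PLGRKT -0.25 (adjusted p = 0.213) in the authors' deposited table.

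Of 12 genes for proteins that act beside the urokinase receptor, 8 were lower, and 6 in the Wald test. The 8 are 6 of 7 integrin genes, the caveolin gene CAV1 and FPR1, a chemotactic receptor that interacts with the urokinase receptor. CAV1 fell by 1.68 (SE 0.15, adjusted p = 2.39e-27), ITGB1, the beta-1 integrin subunit, by 1.28 (SE 0.21, adjusted p = 8.31e-10) and ITGA5, its fibronectin-binding partner, by 0.93 (SE 0.09, adjusted p = 2.19e-26) in the authors' deposited table. ITGB5, ITGB3, ITGA3 and ITGAV, subunits of receptors for vitronectin and laminin, were lower by 0.76, 0.67, 0.56 and 0.41 in the authors' deposited table. ITGB3 and ITGAV were the pair lost in the Wald test (adjusted p = 0.079 and 0.069). FPR1, at a mean of 47.3, fell by 1.71 (SE 0.36, adjusted p = 1.53e-06) in the authors' deposited table. EGFR, through which the urokinase receptor can signal, had -0.05 (SE 0.10, adjusted p = 0.75) in the authors' deposited table.

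Upstream of pro-urokinase, 2 of 7 genes were lower. SPINT2, an inhibitor of the membrane proteases that activate it, fell by 0.98 (SE 0.12, adjusted p = 5.12e-16) in the authors' deposited table. CTSB, a lysosomal protease able to cut pro-urokinase, was lower by 0.41 (SE 0.14, adjusted p = 0.0027) in the authors' deposited table, which was lost after centring on all genes (adjusted p = 0.0803). ST14, the gene of matriptase, had -0.39 (SE 0.26, adjusted p = 0.0758) in the authors' deposited table.

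Among proteins that plasmin cuts or activates, 5 of 12 were lower. The stromelysin gene MMP3 and the interstitial collagenase gene MMP1 had the largest changes, at -5.06 (SE 0.45) and -3.56 (SE 0.70) in log2, but at means of 83.6 and 44.1 normalized counts in the authors' deposited table. CDCP1, a surface protein that serine proteases such as plasmin cleave, fell by 1.44 (SE 0.11, adjusted p = 4.22e-39) at a mean of 3194 in the authors' deposited table. MMP14, a membrane metalloproteinase, fell by 1.10 (SE 0.17, adjusted p = 4.61e-11) and TGFB1, whose latent product plasmin can release, by 0.61 (SE 0.16, adjusted p = 0.000147) in the authors' deposited table. The fibronectin gene FN1 had -0.08 (SE 0.09, adjusted p = 0.571) and MMP9 0.05 (adjusted p = 0.814) in the authors' deposited table.

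Of 16 transcription factor genes linked to the urokinase and receptor enhancers, 4 were lower. Each of the main families has 2 lowered genes: FOSL1 and JUND of 7 AP-1 genes, and ETV1 and ETS1 of 5 ETS genes. ETV1 fell by 0.72 (SE 0.15, adjusted p = 1.3e-06) and ETS1 by 0.46 (SE 0.13, adjusted p = 0.000451) in the authors' deposited table. FOSL1, an AP-1 subunit prominent in this line, was lower by 0.41 (SE 0.14, adjusted p = 0.00329) and JUND by 0.51 (SE 0.22, adjusted p = 0.0109) in the authors' deposited table, both lost in the Wald test (adjusted p = 0.0588 and 0.238). JUN had 0.05 (SE 0.13, adjusted p = 0.824) in the authors' deposited table. Of 7 genes for proteins that bind urokinase or receptor messages, ZFP36L1, a decay factor for AU-rich messages, fell by 0.94 (SE 0.14, adjusted p = 4.25e-11) and KHSRP, another decay factor, by 0.79 (SE 0.15, adjusted p = 2.61e-07) in the authors' deposited table.

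The families of the receptor complex were also read whole. Of the 11 other annexin genes and AHNAK, a scaffold of the annexin A2 complex, 0 passed by DESeq2's adjusted p or by the Wald test, and 3 were lower at an unadjusted p under 0.05. The authors' deposited table gives -0.23 (adjusted p = 0.184) for AHNAK and -0.01 (adjusted p = 0.954) for ANXA5. Of 10 measured S100 genes 3 were lower: S100A16 by 0.75 (SE 0.10, adjusted p = 2.67e-13), S100A4, a gene linked to metastasis, by 0.52 (SE 0.14, adjusted p = 0.00024), and S100A13 by 0.50 (SE 0.23, adjusted p = 0.0147) in the authors' deposited table. The S100A13 call was lost in the Wald test (adjusted p = 0.303). S100A10 differs from these 3 in its deposited value, with an interval that overlaps those of S100A4 and S100A13 but not that of S100A16.

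In the clotting pathway that meets fibrinolysis at fibrin, 3 of 5 genes were lower. TFPI, the inhibitor of tissue factor, fell by 0.73 (SE 0.16, adjusted p = 6.82e-06), PROCR by 0.68 (SE 0.19, adjusted p = 0.000236) and THBD, the gene of thrombomodulin, by 0.57 (SE 0.19, adjusted p = 0.00137) in the authors' deposited table. The THBD call was lost after centring on all genes (adjusted p = 0.0584). F3, the gene of tissue factor, had a mean of 8083 and a log2 change of -0.16 (SE 0.12, adjusted p = 0.279) in the authors' deposited table.

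PLAT and SERPINE2 are also known from fibroblasts and vessel lining, so markers of those cells were read beside them. Of 7 fibroblast markers 2 were higher, LUM by 1.42 and PDGFRB by 0.96 in log2, and 0 lower, at means of 14.2 to 168.2 in the authors' deposited table; PDGFRB was lost in the Wald test (adjusted p = 0.0695). Of 7 endothelial and blood markers 1 was lower, CD68 (-1.25, mean 271.1), and the 6 others had means of 15.6 to 68.9 in the authors' deposited table. Of the luminal breast markers 0 passed by DESeq2's adjusted p or the Wald test, and 1 (ESR1) was lower at an unadjusted p under 0.05. The summed level of a list in each group was not analysed here. All libraries are labelled as the MDA-MB-231 line, and the part of other cells in the members' values was not tested.

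Readthrough past the members was measured for ANXA2 and S100A10 alone. The ANXA2 region had a mean normalized count of 35.9 and a log2 change of 0.12 (SE 0.21, adjusted p = 0.572), and the S100A10 region 82.0 and 0.05 (SE 0.15, adjusted p = 0.831) in the authors' deposited table. Neither passed by DESeq2's adjusted p, while 28.8% of all 2014 regions did. By an unadjusted p under 0.05 or the Wald test 0 of the 2 passed as well. Their 95% intervals on the log2 scale, -0.28 to 0.52 and -0.25 to 0.34, contain the values of the genes themselves. PLAU, PLAT, SERPINE2 and PLAUR have no row of their own in the readthrough table analysed here.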

How the data were processed

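Libraries of rRNA-depleted total RNA were random-primed, stranded and read from both ends, per the labels' protocols. Tools named in the submitters' processing notes are STAR 2.5.2b, cutadapt 1.8.1 and DESeq2, with build hg38. The annotation, counting tool, strand setting and scaling are not given in the sources read. Per the file headers, the authors deposited a mean normalized count (a signal over all libraries), a log2 fold change with its SE, an adjusted and an unadjusted p-value per gene and per readthrough region, from DESeq2. Depth is unknown, so the SE is the only precision. Benjamini-Hochberg values recomputed over all genes matched the deposited ones. In 20112 of 20115 gene rows log2 fold change over SE was smaller than the p-value implies, as shrinkage gives.

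From these values, 95% normal intervals from the SE (shrunken, on the log2 scale) and implied group means were computed, the latter as 2 times the mean shared out by the fold change over equal groups. The Wald test used log2 fold change over SE with Benjamini-Hochberg adjustment over all genes; centring subtracted the median of all genes or of 20 abundance classes. Of these steps, only the Wald test with its adjustment was tried on simulated data. Symbols of 18470 genes matched GENCODE 29 (GRCh38), the source of positions, lengths, UTRs (at least 50 bases) and 75-base windows; promoters are RefSeq's. The members and lists were chosen with earlier results of these data known. Named by rule were the members, UBE3D, neighbours within 50 kb, and per list up to 4 genes past the threshold by p-value or else the 2 most abundant. PLG, SERPINB2, F3, EGFR, FN1 and JUN were added to these. Other genes were named after their values were seen. With 1 comparison, no likeness of pattern over samples could be measured. Protein sequences were not analysed here, and 1 listed gene is not reported here. Python 3.11.15, numpy 2.4.6, pandas 2.3.3, scipy 1.17.1 and matplotlib 3.10.9 were used. The alternatives tried were other thresholds, the Wald test, centring, minimum means, exon unions and a wider neighbour distance.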

Additional observations from a re-analysis of the deposited data

How the results depend on the processing

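Values per library were not analysed here, so no library could be left out. No paired analysis was possible because the tables hold 1 fitted comparison and no column per replicate. PLAU, PLAT and SERPINE2 stayed lower and past the threshold under every alternative that tested them (thresholds of 0.01 and 0.1, Wald test, both centrings, a minimum mean of 100). With a minimum mean of 1000 only 1 member was lower, PLAU, as PLAT, SERPINE2 and PLAUR drop out, and 16 pathway genes were lower, since fewer genes are tested. Pathway genes higher numbered 2 at a threshold of 0.1 and 2 with a minimum mean of 100, and pathway genes lower numbered 21 to 34 under the alternatives other than a minimum of 1000. Readthrough calls of members stayed at 0 at thresholds of 0.01 and 0.1 and in the Wald test. Per kb of exon union the levels were 1734 for S100A10, 982 for ANXA2, 852 for PLAU, 134 for PLAUR, 86.7 for PLAT and 13.8 for SERPINE2. Within 100 kb, 2 of 25 neighbours were lower and 3 higher, beside 7.93% lower and 4.62% higher of all genes. Directions near 0 turned for EGFR, SERPINF2 and SRRM5 after centring by abundance class and for ANXA5 after both centrings, each with an adjusted p of 1. Of the 63 genes named by rule or added to it, 37 were past the threshold. Of those 37 calls the Wald test lost 9, centring on all genes 11 and centring by class 10. Outside the 63 the Wald test also lost IKBKB, ITGB3 and ITGAV. The Wald test, on which both centrings rest, divides shrunken fold changes by their SE, and in 20112 of 20115 genes this gives a larger p-value than the deposited one.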

Other observations

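Readthrough regions of the pathway genes that are not members add values the gene table does not hold. Of 16 such regions 3 were lower and 2 higher in the authors' deposited table, a share close to the 28.8% of all 2014 regions that passed in either direction. The region past FOSL2, an AP-1 gene, was lower by 0.51 in log2 (SE 0.13, adjusted p = 0.000116) and more abundant than its host (mean 2234 against 1748), while FOSL2 itself had -0.18 (SE 0.10, adjusted p = 0.15) in the authors' deposited table. The regions past FOSL1 and S100A16 were lower by 0.45 each, beside hosts lower by 0.41 and 0.75, in the authors' deposited table. ANXA3, a relative of ANXA2, had a region higher by 0.42 (SE 0.21, adjusted p = 0.0286) beside a host at 0.12 (adjusted p = 0.51), and the region past HNRNPC was higher by 0.33 (SE 0.13, adjusted p = 0.018) beside a host at -0.13 in the authors' deposited table. The region past ITGB1 had 0.02 (SE 0.12, adjusted p = 0.901) beside a gene that fell by 1.28, and that past ZFP36L1 had -0.04 (SE 0.24, adjusted p = 0.893) beside a gene that fell by 0.94, in the authors' deposited table. The calls for the FOSL1, HNRNPC and ANXA3 regions were lost in the Wald test (adjusted p = 0.0743, 0.0775 and 0.18), and that for the FOSL2 region after centring by abundance class (adjusted p = 0.0741). The difference between region and host was not tested, and the tables may have been scaled separately.

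CADM4, downstream of PLAUR on the same strand, rose 3.42-fold while PLAUR had 0.11 on the log2 scale in the authors' deposited table. It was not the only raised gene there. Within 100 kb of PLAUR, 3 of 10 measured neighbours were higher and 0 lower (CADM4, IRGQ and KCNN4 higher). Over all genes, 4.62% were higher and 7.93% lower. Whether transcription past PLAUR differs was not analysed here, as PLAUR has no row of its own among the regions.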
